A study of Mus musculus with 10 samples.

Results

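The 53 genes described here are markers and effectors of T cells (24 genes), of natural killer (NK) and other cytotoxic lymphocytes (15 genes) and of B and plasma cells (14 genes). They were chosen by name from a deposited table of 26063 mouse genes, and 51 of the 53 have counts there. Gzmk and Tnfrsf17 are not analysed here, which leaves 24 T, 14 NK and cytotoxic and 13 B and plasma genes. No measured value entered the choice of a gene, but the list was drawn up with earlier results of these data known. The table holds bulk RNA sequencing of mammary tumours from 10 female FVB/N mice, a common inbred laboratory strain. In 5 of the mice the genotype is EIC/WT (called EIC here) and in the other 5 it is 16IC/WT (called 16IC). Mice of both groups received doxycycline at 2 mg/ml, and their tumours were collected at end point and flash frozen. The labels spell out neither allele name, and the sources used here give neither the promoter that drives the transgenes nor the age of the mice. From the series title, the comparison bears on whether a HER2 variant shapes an immune cold tumour, that is, a tumour with few infiltrating lymphocytes. Each tumour is from its own mouse, and tumours are numbered only to tell them apart.

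T cells recognise peptide fragments through a receptor made of variable chains and the invariant CD3 subunits, with CD4 or CD8 as co-receptor and the kinases LCK and ZAP70 as the first relays. Cytotoxic T cells and NK cells kill by releasing perforin and granzymes, and NK cells are steered by activating and inhibitory surface receptors. B cells carry membrane immunoglobulin with the CD79 pair, and plasma cells secrete immunoglobulin in large amounts. In mammary tumours these cells are usually a minority beside epithelium, fibroblasts and macrophages. In bulk RNA, fewer cells of a type and less RNA of a gene in each cell cannot be told apart.

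The libraries held 14813940 to 16947400 counts each. Levels are in CPM, the usual measure of counts relative to the library's total, here scaled by TMM, edgeR's correction for library composition. On this scale 1 count is worth 0.0577 to 0.0719 CPM. A gene with 0 counts in a tumour may still stand at up to 3 counts, or 0.173 to 0.216 CPM, a limit that covers counting error only. Differences are log2 of 16IC over EIC. edgeR's quasi-likelihood test called 0 of 14915 tested genes at a Benjamini-Hochberg adjusted p under 0.05 (0%), while 1958 had an unadjusted p under 0.05. DESeq2 called 356 of the 16838 genes to which it gave an adjusted p (2.11%). Epithelial tissue was plain in every tumour, with the epithelial adhesion gene Epcam at 1224 to 2082 CPM. The leukocyte gene Ptprc (CD45) ran from 8.56 CPM (16IC 4) to 42.4 CPM (EIC 1).

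Lymphocyte transcripts were detected in every tumour, but most of the genes stood at a handful of counts. Of the 51 genes, 39 (76.5%) had a median over the 10 tumours under 1 CPM, against 46.7% of all genes in the table. The 12 with a median of at least 1 CPM were Cd4, Lck, Thy1, Il2ra and Tcf7 of the T genes, Gzmb, Gzmc and Il2rb of the cytotoxic genes, and Cd22, Ighm, Igha and Igkc of the B and plasma genes. Another 12 never reached 1 CPM in any tumour: Cd247, Cd5, Trbc1, Lat, Icos, Cd28, Foxp3, Klrd1, Klrg1, Eomes, Ifng and Fasl. At least 1 count in all 10 tumours was found for 19 of the 51 (37.3%), and 32 were at 0 in some tumour. Only 5 had 10 counts or more in every tumour, namely Cd4, Lck, Thy1, Tcf7 and Ighm.

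The number of genes with at least 1 count was 50, 33, 31, 43 and 49 of 51 in EIC 1 to EIC 5, and 41, 46, 42, 36 and 46 in 16IC 1 to 16IC 5. The groups overlapped, and both the widest and the narrowest repertoires were in EIC. At 10 counts or more the numbers were 44, 7, 9, 16 and 22 in EIC and 22, 16, 14, 15 and 23 in 16IC. EIC 1 thus held the most and EIC 2 and EIC 3 the fewest genes at that threshold. All 51 genes together took 36.7 (EIC 2) to 236 CPM (EIC 1) when scaled by the plain library total.

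**Figure D1:**
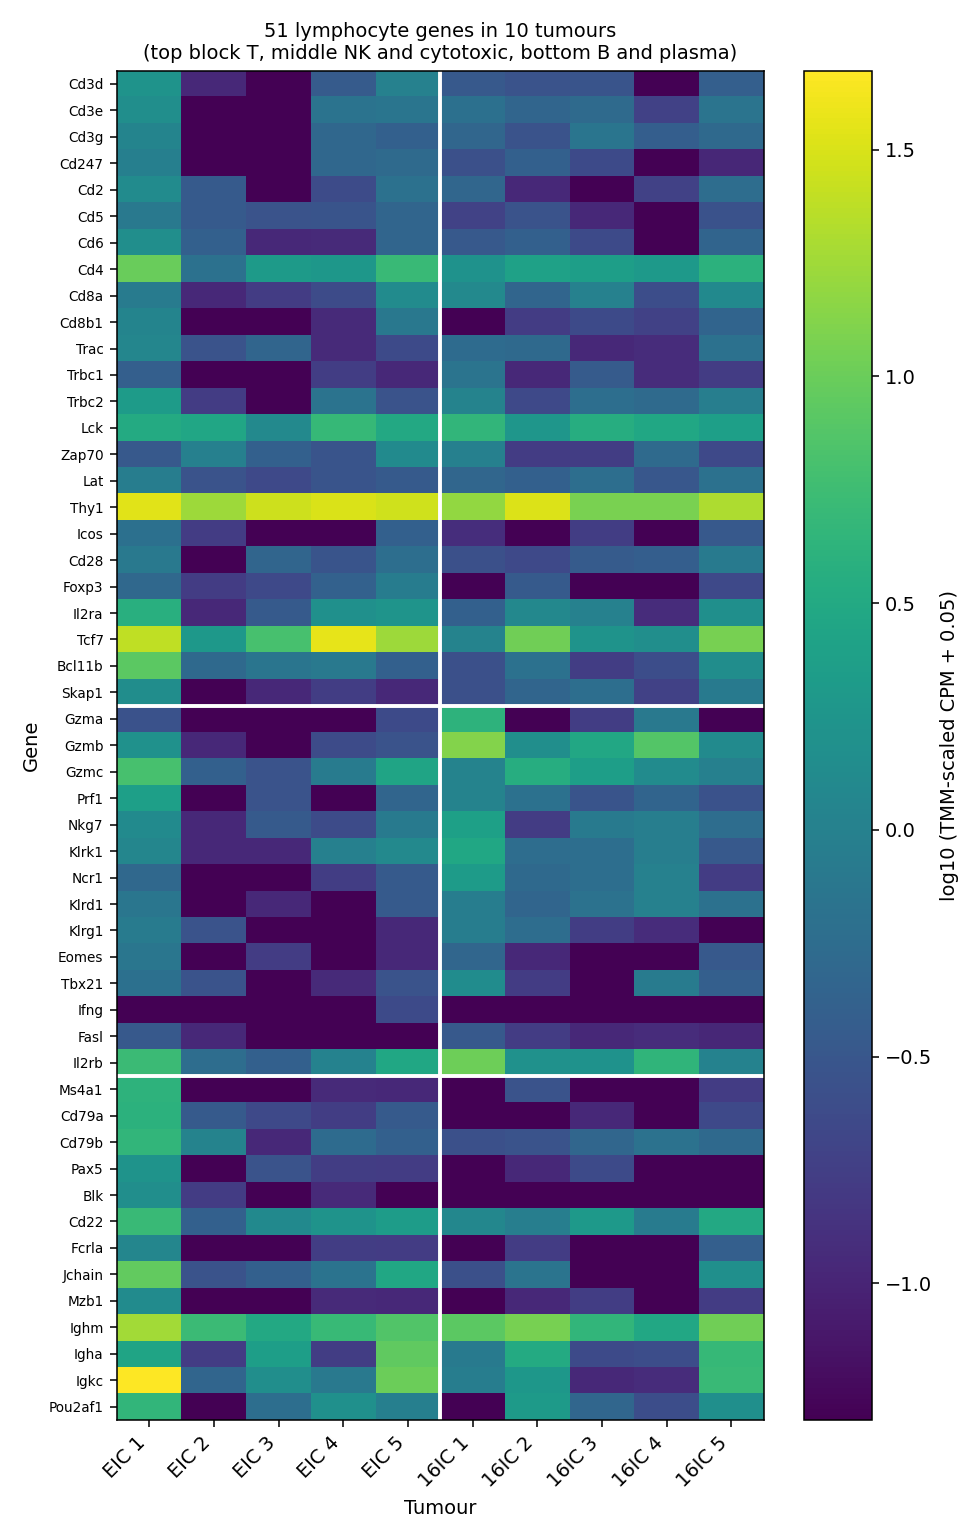
Level of the 51 lymphocyte genes (rows, in blocks of T, NK and cytotoxic, and B and plasma genes) in the 10 tumours (columns), as log10 of TMM-scaled CPM plus a constant of 0.05; the darkest shade is 0 counts. Thy1 and Tcf7 stand out among T genes, the B and plasma block is brightest in EIC 1, and several cytotoxic genes are brightest in 16IC 1.

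Summed by lineage, the T genes reached 102.5, 26.1, 40.9, 82.0 and 66.1 CPM in EIC 1 to EIC 5 and 30.9, 53.7, 25.8, 21.4 and 50.1 CPM in 16IC 1 to 16IC 5. Mean sums were 63.5 ± 30.7 and 36.4 ± 14.6 CPM (SD, n = 5 each), a log2 ratio of -0.80, and the groups overlapped. Thy1 made up 46.6% of the T sum over all tumours and Tcf7 22.8%, and both genes are also expressed outside the T lineage. Without them the sums were 43.4, 6.82, 6.22, 13.6 and 20.1 CPM in EIC and 14.3, 10.6, 12.4, 7.94 and 17.9 CPM in 16IC, with means of 18.0 ± 15.3 and 12.6 ± 3.76 CPM. EIC 1 held the highest of these 10 sums, and without that tumour the remaining 4 EIC tumours averaged 11.7 ± 6.53 CPM, a log2 ratio of 0.11.

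NK and cytotoxic genes summed to 21.7, 1.6, 1.37, 3.31 and 9.56 CPM in EIC and to 40.9, 9.50, 9.84, 19.0 and 5.68 CPM in 16IC. The means were 7.51 ± 8.60 and 16.996 ± 14.3 CPM (log2 ratio 1.18), again with overlap. The 16IC tumours spread from 5.68 to 40.9 CPM, whereas EIC 2, EIC 3 and EIC 4 lay between 1.37 and 3.31 CPM. The log2 ratio was 2.10 without EIC 1 and 0.55 without 16IC 1, so each of these tumours moved it by more than 1.5 times. B and plasma genes summed to 104.8, 7.82, 9.38, 10.7 and 33.1 CPM in EIC and to 11.7, 20.7, 7.83, 4.93 and 27.9 CPM in 16IC. Here EIC 1 stood apart from all others: the means were 33.2 ± 41.4 and 14.6 ± 9.51 CPM (log2 ratio -1.18), but 15.2 ± 11.9 CPM over the other 4 EIC tumours, for a log2 ratio of -0.06. No test was run on these sums.

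**Figure D2:**
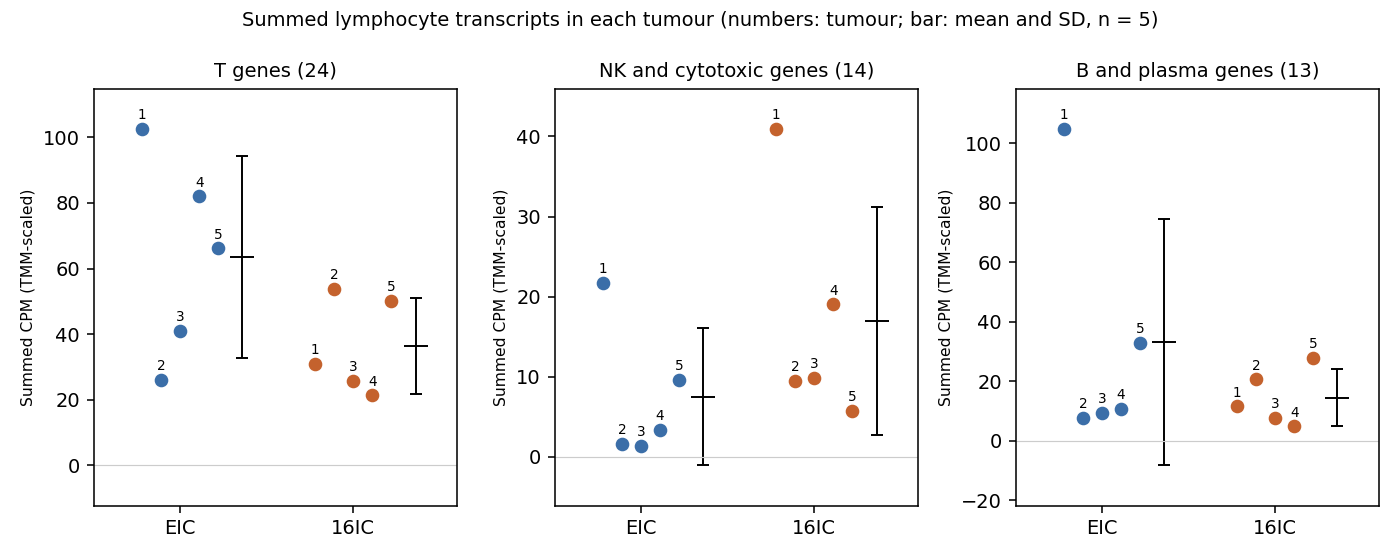
Summed TMM-scaled CPM (vertical axis) of the T, the NK and cytotoxic and the B and plasma genes in each tumour (points, numbered within EIC and 16IC), with mean and SD (n = 5) as bars. The groups overlap in all panels; EIC 1 is highest for T (102.5 CPM) and B and plasma genes (104.8 CPM), and 16IC 1 for NK and cytotoxic genes (40.9 CPM).

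Transcripts of the T-cell receptor complex itself were sparse. The CD3 subunit genes Cd3d, Cd3e, Cd3g and Cd247, which carry the receptor's signal into the cell, together gave 87, 1, 0, 29 and 41 counts in EIC 1 to EIC 5 and 21, 21, 26, 7 and 26 counts in 16IC 1 to 16IC 5. As levels these were 5.02, 0.0593, 0, 1.81 and 2.47 CPM in EIC and 1.51, 1.25, 1.58, 0.479 and 1.52 CPM in 16IC. EIC 2 and EIC 3 thus lay at the limit of detection, while every 16IC tumour gave at least 7 counts. Mean sums were 1.87 ± 2.07 CPM in EIC and 1.27 ± 0.459 CPM in 16IC, within the spread of EIC, and all 4 subunits had counts in 7 of the 10 tumours. Cd247 is uncertain, since the exons of Pou2f1 on the opposite strand overlap 56.4% of its exon bases, and no source used here gives the strand setting of the counting. Trac, the constant region of the receptor's alpha chain, had counts in all 10 tumours, 34 in EIC and 27 in 16IC altogether. The constant regions of the beta chain lie side by side on chromosome 6 (Trbc1, chr6:41538218-41539881, and Trbc2, chr6:41546730-41548352, both on the plus strand of GRCm38). Their first 259 transcript bases are identical, so how counts divide between them is uncertain. The stretch from base 230 to base 289 of each transcript in GENCODE M21, the gene annotation used here, is shown because it holds the first difference between them, in capitals (C260A, counted from base 1 of the transcript, Trbc1's base first):
Trbc1: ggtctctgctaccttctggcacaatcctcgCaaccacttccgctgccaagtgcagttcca
Trbc2: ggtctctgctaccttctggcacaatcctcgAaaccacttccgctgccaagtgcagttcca
Of the 50-base stretches of Trbc1, 40.5% also occur in Trbc2, and 44.0% of those of Trbc2 occur in Trbc1. Trbc1 had 6, 0, 0, 2 and 1 counts in EIC and 9, 1, 5, 1 and 2 in 16IC. Trbc2 had 36, 2, 0, 10 and 4 counts in EIC and 14, 3, 9, 7 and 15 in 16IC. EIC 3 had 0 counts of both genes, and the highest values were in EIC 1 for Trbc2 and 16IC 1 for Trbc1.

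Among the co-receptors, Cd4, which marks helper and regulatory T cells and is also found on some dendritic cells, was the most counted. It stood at 9.82, 0.593, 2.03, 1.81 and 5.17 CPM in EIC and at 1.58, 2.49, 2.25, 1.92 and 3.98 CPM in 16IC. EIC held both its highest and its lowest value, and the log2 difference was -0.67 (SE 0.64, edgeR's adjusted p = 0.652). Cd8a, the chain of the CD8 co-receptor on cytotoxic T cells that also occurs on some dendritic cells, stood at 0.808, 0.0593, 0.120, 0.187 and 1.32 CPM in EIC and at 1.22, 0.416, 0.972, 0.205 and 1.23 CPM in 16IC. The groups overlapped, with EIC 2, EIC 3 and EIC 4 at the low end (log2 difference 0.68, SE 0.79, edgeR's adjusted p = 0.716, and 1.43 without EIC 5). Cd8b1, the partner chain found on conventional cytotoxic T cells, had 18, 0, 0, 1 and 12 counts in EIC and 0, 2, 3, 2 and 7 counts in 16IC. In 16IC 1, which had 17 counts of Cd8a, Cd8b1 was at 0.

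Lck, the kinase that starts signalling at CD4 and CD8, had counts in every tumour. It stood at 3.23, 2.84, 1.20, 4.93 and 3.07 CPM in EIC (48 counts in EIC 2) and at 4.53, 1.78, 3.52, 2.94 and 2.34 CPM in 16IC. It was thus present at 20 to 79 counts in all tumours, including EIC 2 and EIC 3 with 1 and 0 counts of CD3 and 4 and 7 counts of Trac, and its log2 difference was -0.02 (SE 0.40, edgeR's adjusted p = 0.991). Compared per kilobase of gene length, which allows levels of different genes to be set side by side, Lck averaged 1.04 CPM per kilobase over the 10 tumours and the CD3 subunits 0.0498 to 0.224. The other relays were scarcer. Zap70, the kinase recruited to the CD3 chains, ran from 2 to 21 counts, and was highest in EIC 5 and EIC 2. The adaptors Lat and Skap1 ran from 3 to 15 and from 0 to 24 counts, with their highest values in EIC 1.

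Thy1, a surface glycoprotein of mouse T cells that fibroblasts also carry, was the most abundant T gene. It stood at 34.3, 17.4, 28.3, 31.6 and 28.6 CPM in EIC and at 15.6, 32.5, 11.8, 11.98 and 20.6 CPM in 16IC. All EIC tumours but EIC 2 were above all 16IC tumours but 16IC 2, with a log2 difference of -0.60 (SE 0.30, edgeR's adjusted p = 0.412). In the same tumours 10 fibroblast genes, of which Thy1 is 1, summed to 7097, 1967, 2793, 4598 and 3152 CPM in EIC and 2537, 3910, 451, 1187 and 3640 CPM in 16IC, and 9 of the 10 had log2 differences under 0; their part in the Thy1 values was not tested. Tcf7, a transcription factor of naive and memory T cells that also acts in WNT signalling in other tissues, stood at 24.8, 1.90, 6.45, 36.8 and 17.4 CPM in EIC and at 1.01, 10.7, 1.64, 1.44 and 11.7 CPM in 16IC. It was high in EIC 1, EIC 4 and EIC 5 and intermediate in 16IC 2 and 16IC 5, with a log2 difference of -1.72 (SE 0.89, edgeR's adjusted p = 0.422). In EIC 4, where Tcf7 was highest, the CD3 subunits gave 29 counts against 589 of Tcf7. Bcl11b, a factor that commits precursors to the T lineage, had 146 of its 225 counts in EIC 1 and 2 to 24 counts in each of the others.

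The remaining T genes are surface molecules and regulators. Cd2, an adhesion receptor, and Cd6, a scavenger receptor family member that tunes T-cell signalling, ran from 0 to 23 and 0 to 25 counts. Cd5, a related inhibitory receptor, had 13, 5, 4, 4 and 7 counts in EIC and 2, 4, 1, 0 and 4 counts in 16IC. On the CPM scale it was the only gene of the 51 whose groups did not overlap (0.239 to 0.751 CPM in EIC, 0 to 0.238 CPM in 16IC), while 0.940% of all genes in the table had every 16IC tumour below every EIC tumour and 0.905% every one above. Both groups held tumours with exactly 4 counts of Cd5, so the separation lay within what 1 count decides, and the gene was too low to be tested by edgeR. The costimulatory receptors Cd28 and Icos ran from 0 to 13 and 0 to 10 counts. Foxp3, the defining factor of regulatory T cells, had 8, 2, 3, 6 and 14 counts in EIC and 0, 5, 0, 0 and 3 counts in 16IC; it overlaps Flicr and other annotated genes and is uncertain. Il2ra, the alpha chain of the interleukin-2 receptor, which regulatory and activated T cells carry, stood at 3.70, 0.0593, 0.299, 1.498 and 1.68 CPM in EIC and 0.360, 1.19, 0.972, 0.0684 and 1.46 CPM in 16IC. The groups overlapped throughout (log2 difference -0.82, SE 0.91, edgeR's adjusted p = 0.701), and the difference was -0.12 without EIC 1.

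**Figure D3:**
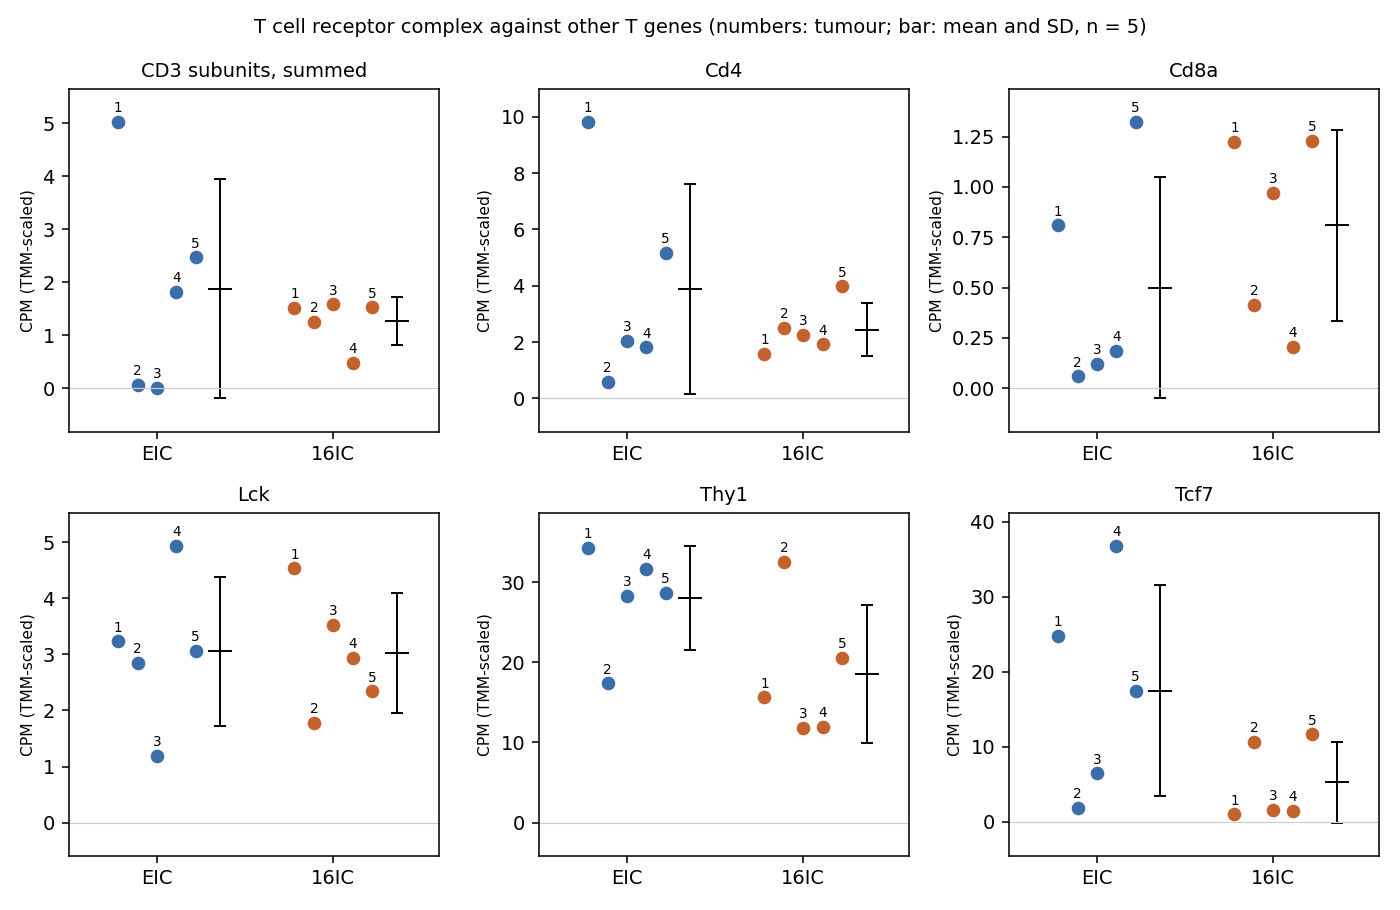
TMM-scaled CPM (vertical axis) of the summed CD3 subunits, Cd4, Cd8a, Lck, Thy1 and Tcf7 in each tumour (points, numbered within EIC and 16IC), with mean and SD (n = 5) as bars. EIC 2 and EIC 3 have CD3 sums of 0.0593 and 0 CPM but Lck levels of 2.84 and 1.20 CPM, and Tcf7 spans 1.01 to 36.8 CPM.

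Of the cytotoxic granule genes, Gzmb, which encodes the protease granzyme B, showed the widest gap between the groups. It had 27, 1, 0, 3 and 4 counts in EIC and 184, 24, 49, 110 and 22 counts in 16IC, or 1.56, 0.0593, 0, 0.187 and 0.241 CPM and 13.2, 1.43, 2.98, 7.53 and 1.29 CPM. The groups overlapped only because EIC 1 lay above 16IC 2 and 16IC 5, and 1.42% of tested genes had every 16IC tumour above every EIC tumour (1.17% below). The means were 0.409 ± 0.650 and 5.29 ± 5.11 CPM, for a log2 difference of 3.65 (SE 1.09, edgeR's adjusted p = 0.288). DESeq2 called it (log2 difference 3.69, adjusted p = 0.0139), the only 1 of the 34 genes of the list with an adjusted p there that passed, where 0.843% of all such genes were called higher and 1.27% lower. DESeq2's adjusted p was 0.0566 without EIC 4, 0.0512 without EIC 5, 0.125 without 16IC 1 and 0.0788 without 16IC 4, which ended the call, and 6.80e-06 without EIC 1. The authors' deposited log2 fold change of Gzmb, 3.69 (adjusted p 0.0139), equals DESeq2's value here at this rounding. It comes from the same tumours and so is no independent support.

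Gzmc, a neighbouring granzyme gene on chromosome 14 whose product also sits in cytotoxic granules, had another pattern. Its levels were 6.47, 0.356, 0.239, 0.811 and 2.65 CPM in EIC and 1.01, 3.56, 2.25, 1.30 and 0.937 CPM in 16IC. EIC 1, 16IC 2 and EIC 5 were highest, and 16IC 1, the tumour highest for Gzmb, had 14 counts of Gzmc against 184 of Gzmb (log2 difference -0.22, SE 0.83, edgeR's adjusted p = 0.924). Since these neighbours differed between tumours, their promoter windows are shown, from 250 bases before to 50 bases after the start of each gene in RefSeq (GRCm38.p6, minus strand; Gzmb at chr14:56262285-56262584, Gzmc at chr14:56234608-56234907). In the deposited table Gzmb starts 74 bases and Gzmc 1 base downstream of the RefSeq start, so the Gzmb window lies wholly before the table's Gzmb while the Gzmc window holds 49 bases of the table's Gzmc. Capitals mark matches on either strand to the core of the cyclic AMP response element (TGACGT), to the AP-1 motif (TGANTCA) and to the RUNX motif (TGTGGT):
Gzmb: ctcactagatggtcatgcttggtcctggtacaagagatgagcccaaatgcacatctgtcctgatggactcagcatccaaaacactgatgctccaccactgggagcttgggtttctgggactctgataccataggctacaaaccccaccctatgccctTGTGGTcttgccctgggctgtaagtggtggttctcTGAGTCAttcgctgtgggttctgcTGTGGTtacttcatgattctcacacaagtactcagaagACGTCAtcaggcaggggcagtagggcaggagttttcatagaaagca
Gzmc: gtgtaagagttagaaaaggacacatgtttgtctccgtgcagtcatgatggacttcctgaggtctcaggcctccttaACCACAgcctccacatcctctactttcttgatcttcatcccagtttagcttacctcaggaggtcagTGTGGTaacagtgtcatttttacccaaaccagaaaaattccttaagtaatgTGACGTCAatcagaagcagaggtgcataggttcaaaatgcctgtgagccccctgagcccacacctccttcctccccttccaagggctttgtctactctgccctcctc
The Gzmb window held 1 match to the cyclic AMP core, 1 to AP-1 and 2 to RUNX. The Gzmc window held 2 matches to the cyclic AMP core, which overlap as both strands of a single palindrome, 0 to AP-1 and 2 to RUNX. Of 32817 windows of the same length, 7.51% held the cyclic AMP core, 7.81% AP-1 and 16.8% RUNX. A match describes these letters only. Of the 51 genes, 30 had a window in the RefSeq table.

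Gzma, granzyme A, was concentrated in a single tumour, with 4, 0, 0, 0 and 3 counts in EIC and 57, 0, 2, 11 and 0 counts in 16IC. Prf1, which encodes the pore-forming perforin, had 40, 0, 4, 0 and 7 counts in EIC and 14, 10, 4, 6 and 4 counts in 16IC. It was highest in EIC 1, and had counts in all 16IC tumours but in 3 of the 5 EIC tumours. Nkg7, a granule membrane protein, stood at 1.27, 0.0593, 0.299, 0.187 and 0.782 CPM in EIC and 2.37, 0.119, 0.790, 0.890 and 0.527 CPM in 16IC, at a log2 difference of 0.83 (SE 0.82, edgeR's adjusted p = 0.664), which was 0.15 without 16IC 1 and 1.47 without EIC 1. 16IC 1 was again the highest tumour, and the groups overlapped.

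The NK receptors were low throughout. Ncr1 encodes NKp46, an activating receptor largely restricted to NK cells and related innate lymphocytes. It had 8, 0, 0, 2 and 5 counts in EIC and 29, 8, 9, 14 and 2 counts in 16IC. Klrd1 (CD94) had 12, 0, 1, 0 and 5 counts in EIC and 12, 7, 10, 14 and 10 counts in 16IC. For both, EIC 2, EIC 3 and EIC 4 gave 0 to 2 counts, and neither passed the filter for edgeR. Klrk1, the activating receptor NKG2D of NK cells and CD8 T cells, stood at 1.10, 0.0593, 0.0598, 0.936 and 1.20 CPM in EIC and 2.95, 0.534, 0.547, 0.890 and 0.293 CPM in 16IC, at a log2 difference of 0.62 (SE 0.87, edgeR's adjusted p = 0.770). Its difference rested on 16IC 1, without which it was -0.25. Klrg1, an inhibitory receptor of mature NK and effector T cells, ran from 0 to 14 counts.

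Il2rb, the interleukin-2 and interleukin-15 receptor chain that NK cells and activated T cells use, was the largest part of the NK and cytotoxic sum (23.6%, with 23.3% from Gzmb). It stood at 5.25, 0.533, 0.359, 0.999 and 2.95 CPM in EIC and 10.4, 1.54, 1.58, 4.38 and 0.995 CPM in 16IC. 16IC 1 was highest, then EIC 1 and 16IC 4, and the log2 difference was 0.89 (SE 0.85, edgeR's adjusted p = 0.652). It was 0.067 without 16IC 1 and 1.63 without EIC 1. The effector transcription factors Tbx21 (T-bet) and Eomes ran from 0 to 19 and 0 to 12 counts, Tbx21 highest in 16IC 1 and Eomes in EIC 1. Ifng, the main effector cytokine of these cells, gave 3 counts in EIC 5 and 0 in the other 9 tumours, and Gm49751 overlaps part of it. Fasl, a death ligand, gave 0 to 5 counts per tumour. At this depth neither could be compared between the groups.

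Of the 14 NK and cytotoxic genes, 8 were highest in 16IC 1 (Gzma, Gzmb, Nkg7, Klrk1, Ncr1, Klrg1, Tbx21 and Il2rb) and 4 in EIC 1. The same tumour 16IC 1 held the highest score of 25 interferon-stimulated genes, as mean log2 of CPM plus 0.1: 7.42, against 4.74, 5.55, 5.70 and 4.81 in the other 16IC tumours and 5.95, 2.74, 3.75, 6.76 and 6.08 in EIC. Their part in the cytotoxic values was not tested.

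**Figure D4:**
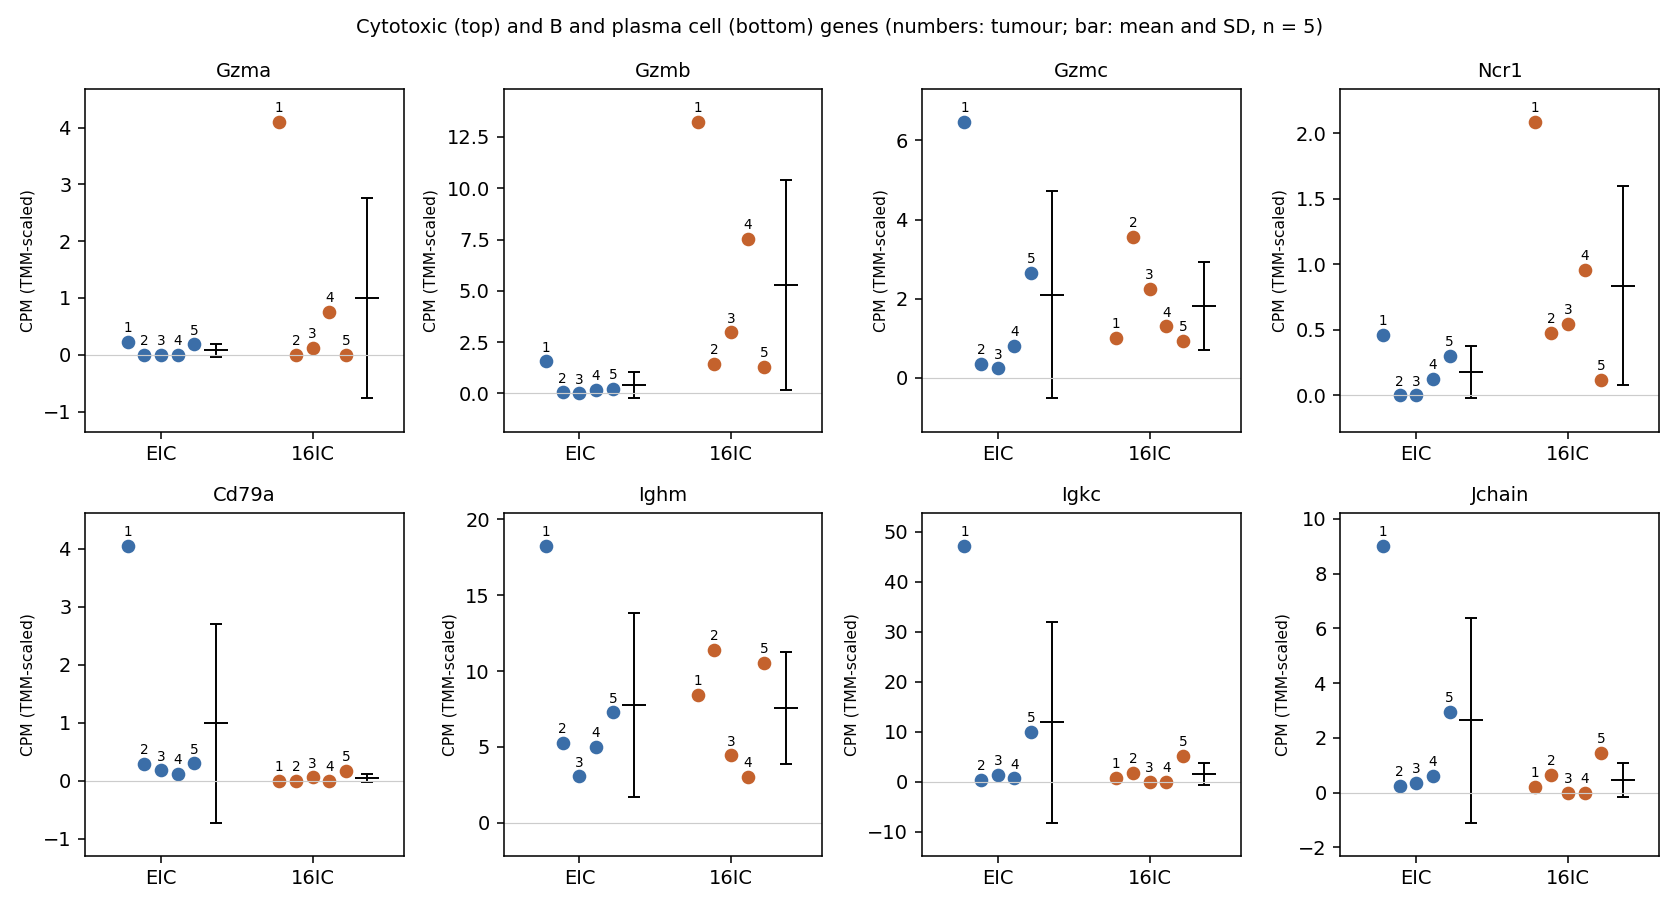
TMM-scaled CPM (vertical axis) of Gzma, Gzmb, Gzmc and Ncr1 (top) and of Cd79a, Ighm, Igkc and Jchain (bottom) in each tumour (points, numbered within EIC and 16IC), with mean and SD (n = 5) as bars. Gzmb reaches 13.2 CPM in 16IC 1 and at most 1.56 CPM in EIC, whereas Igkc reaches 47.2 CPM in EIC 1 and Ighm has 3.01 CPM or more in every tumour.

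Genes of B-cell identity came mostly from EIC 1. Ms4a1 (CD20), a surface protein of mature B cells, had 72, 0, 0, 1 and 1 counts in EIC and 0, 4, 0, 0 and 2 counts in 16IC. Cd79a, a signalling chain of the B-cell receptor, had 70, 5, 3, 2 and 5 counts in EIC and 0, 0, 1, 0 and 3 counts in 16IC. Its partner Cd79b had 77, 17, 1, 8 and 6 counts in EIC and 3, 4, 7, 9 and 8 counts in 16IC. Blk, a B-cell kinase, had 25, 2, 0, 1 and 0 counts in EIC and 0 in all 16IC tumours. Pax5, the factor that fixes B-cell identity, and Fcrla, an Fc receptor-like protein of B cells, had 28 and 19 counts in EIC 1 and at most 4 and 6 elsewhere. In all, 9 of the 13 B and plasma genes had more counts in EIC 1 than in the other 9 tumours together (Ms4a1, Cd79a, Cd79b, Pax5, Blk, Fcrla, Jchain, Mzb1 and Igkc), as did 1 of the 24 T genes, Bcl11b.

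Cd22, an inhibitory receptor of B cells, stood at 5.14, 0.356, 1.26, 1.62 and 2.16 CPM in EIC and 1.15, 0.891, 1.94, 0.821 and 3.10 CPM in 16IC. The groups overlapped, and its log2 difference of -0.41 (SE 0.64, edgeR's adjusted p = 0.790) was 0.23 without EIC 1. In 16IC 1, 16 counts of Cd22 stood beside 0 counts of Ms4a1, Cd79a, Pax5 and Blk, and an antisense gene covers 9.5% of the exon bases of Cd22. Pou2af1, a coactivator of immunoglobulin transcription, stood at 4.45, 0, 0.538, 1.498 and 0.902 CPM in EIC and 0, 2.02, 0.425, 0.205 and 1.46 CPM in 16IC. It was at 0 in a tumour of each group (log2 difference -0.83, SE 1.12, edgeR's adjusted p = 0.762).

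The immunoglobulin constant regions were the most abundant B and plasma genes. Ighm, the heavy chain of IgM, stood at 18.2, 5.28, 3.05, 4.99 and 7.28 CPM in EIC and 8.42, 11.4, 4.43, 3.01 and 10.5 CPM in 16IC. It was the only B or plasma gene at 1 CPM or more in all 10 tumours, and its log2 difference was -0.04 (SE 0.52, edgeR's adjusted p = 0.981). Igkc, the kappa light chain constant region (chr6:70726435-70726966), stood at 47.2, 0.415, 1.43, 0.749 and 10.04 CPM in EIC and 0.863, 1.84, 0.0607, 0.0684 and 5.21 CPM in 16IC. EIC 1 held 817 of its 1161 counts, and the log2 difference of -2.88 (SE 1.44, edgeR's adjusted p = 0.412) was -0.97 without that tumour. Light and heavy chain did not keep pace: Igkc counts per Ighm count were 2.59, 0.0787, 0.471, 0.15 and 1.38 in EIC and 0.103, 0.161, 0.0137, 0.0227 and 0.494 in 16IC. 16IC 3 and 16IC 4 thus gave a single count of Igkc beside 73 and 44 counts of Ighm. Igha, the heavy chain of the mucosal antibody IgA, stood at 2.66, 0.119, 2.27, 0.125 and 8.72 CPM in EIC and 0.791, 3.21, 0.182, 0.205 and 4.86 CPM in 16IC. It was the only B or plasma gene not highest in EIC 1, and its highest tumours were EIC 5 and 16IC 5 (log2 difference -0.58, SE 1.17, edgeR's adjusted p = 0.842).

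Jchain, which links secreted IgM and IgA into polymers, stood at 9.01, 0.237, 0.359, 0.624 and 2.95 CPM in EIC and 0.216, 0.653, 0, 0 and 1.46 CPM in 16IC. EIC 1, EIC 5 and 16IC 5 were highest, and the log2 difference was -2.46 (SE 1.27, edgeR's adjusted p = 0.420), or -1.13 without EIC 1. Mzb1, a chaperone of antibody-secreting cells, had 23 counts in EIC 1 and 0 to 2 elsewhere. It shares 57.2% of its exon bases with SPATA24 on the same strand and is uncertain.

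Across the whole list, 17 of the 51 genes passed the count filter, and statements on the 17 do not extend to the 34 that did not. Log2 differences were above 0 for 1 of 6 T genes (median -0.63), for 4 of 5 NK and cytotoxic genes (median 0.83) and for 0 of 6 B and plasma genes (median -0.70). The NK and cytotoxic median was 0.067 without 16IC 1, with 3 of 5 above 0, and 1.47 without EIC 1. Without EIC 1 the T median was -0.056 and the B and plasma median -0.21, with 3 of 6 above 0 in each. Several single genes also hung on 1 tumour. Without EIC 1 the log2 difference was 0.03 for Cd4, 0.83 for Gzmc, 0.23 for Cd22, 0.55 for Ighm and 0.18 for Pou2af1, without EIC 5 it was 0.52 for Igha, and without 16IC 1 it was -0.25 for Klrk1. Over all tested genes 47.7% were above 0, 52.3% were below, and the median was -0.02. edgeR called 0 of the 17, with adjusted p from 0.288 to 0.991, and 1 (Gzmb) had an unadjusted p under 0.05, where 6.84% of all tested genes were higher and 6.29% lower at that level. Fitted without the filter, 17 of the 51 were above and 34 below 0, with a median of -0.58. There 6 had an unadjusted p under 0.05 (Blk, Cd79a and Pax5 lower, Gzma, Gzmb and Ncr1 higher), and the smallest adjusted p was 0.365. Shares over all genes are not given here for the unfiltered fit, so these counts have no background to be judged against.

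**Figure D5:**
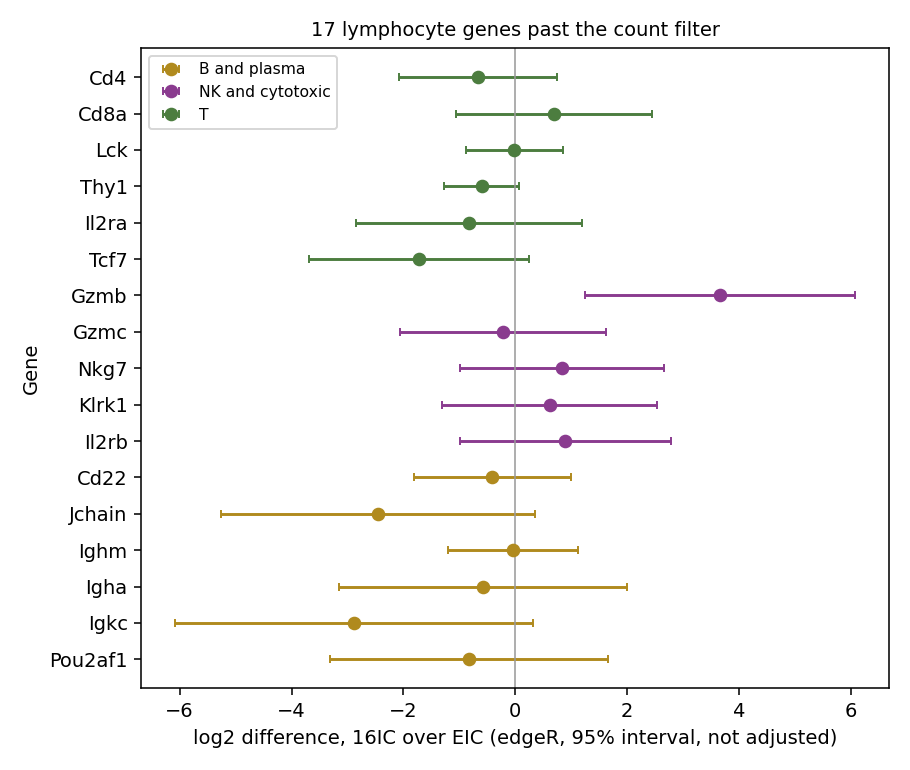
Log2 difference (horizontal axis, 16IC over EIC) of the 17 genes past the count filter, coloured by lineage. Bars are 95% intervals, approximated from edgeR's test statistic and not adjusted for multiple tests. The interval of Gzmb (3.65) lies above 0 and those of the other 16 include 0.

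The genes were spread unevenly over the tumours. Of the 51 genes, 33 were highest in EIC 1 (17 T, 4 NK and cytotoxic, 12 B and plasma), 9 in 16IC 1 and 5 in EIC 5. EIC 1 alone gave 28.0% of all counts of the 51 genes and 45.2% of those of the B and plasma genes. In that tumour the 12 macrophage genes summed to 1445 CPM, against 566, 626, 1034 and 982 CPM in the other EIC tumours and 429 to 1193 CPM in 16IC. The 9 measured genes of lymph node stroma summed to 63.0 CPM in EIC 1, against 2.02 to 21.7 CPM in the other EIC tumours and 3.49 to 26.1 CPM in 16IC. Of these, Glycam1, also a milk gene, gave 43.3 CPM in EIC 1, Ccl21a, a chemokine of lymph node stroma, 2.95 CPM, and Madcam1, an adhesion molecule of lymphoid vessels, 0. Their part in the B and plasma values was not tested.

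Other genes of the same lineages, from lists set beside the 53, gave a similar picture of few counts. Of 28 further T genes, 18 had a mean under 1 CPM, and of the 10 tested 3 were higher and 7 lower in 16IC. edgeR called 0 of the 10, 3 had an unadjusted edgeR p under 0.05, and DESeq2 called 1. Among all tested genes 6.84% were higher and 6.29% lower at that unadjusted level. DESeq2 called 2.11% of all genes to which it gave an adjusted p. Rasgrp1, an activator of RAS in lymphocytes, stood at 3.46, 0.178, 0.598, 1.56 and 0.481 CPM in EIC and 12.4, 1.48, 13.7, 14.2 and 1.17 CPM in 16IC. It was high in 16IC 1, 16IC 3 and 16IC 4, and DESeq2 called it (adjusted p = 0.0406), while edgeR did not (log2 difference 2.76, SE 0.93, adjusted p = 0.292). The immune checkpoint Ctla4 and Cd40lg, a T helper signal to B cells, gave at most 0.289 and 0.176 CPM.

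Of the 20 further NK and cytotoxic genes in the table, 12 had a mean under 1 CPM. Of the 6 tested, 3 were higher and 3 lower in 16IC (0 called by edgeR, 2 with an unadjusted p under 0.05). At that unadjusted level 6.84% of all tested genes were higher and 6.29% lower. Gzme, another granzyme of the same cluster, stood at 9.07, 0.889, 0.956, 2.81 and 12.6 CPM in EIC and 0, 2.43, 0.0607, 0 and 0.234 CPM in 16IC. It was highest in EIC 1 and EIC 5, as opposed to Gzmb, and its log2 difference was -3.23 (SE 1.30, edgeR's adjusted p = 0.346). Gzmd, Gzmf and Gzmg stood at 8.14, 8.03 and 8.20 CPM in EIC 1 and at 0 to 3.37 CPM in each other tumour. Xcl1, a chemokine of NK and CD8 T cells, stood at 0.0577, 0, 0, 0.125 and 0 CPM in EIC and 2.30, 0.416, 0.668, 0.821 and 0 CPM in 16IC. DESeq2 called it (adjusted p = 0.0426), where 2.11% of all genes with an adjusted p there were called, and it was too low for edgeR's test. Serpinb9, an inhibitor of granzyme B, led the list at 12.01 to 42.2 CPM (log2 difference 0.63, edgeR's adjusted p = 0.356).

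Of 25 further B and plasma genes, 17 had a mean under 1 CPM, and of the 8 tested 2 were higher and 6 lower in 16IC. edgeR and DESeq2 called 0 of the 8. An unadjusted edgeR p under 0.05 was found for 1, where 6.84% of all tested genes were higher and 6.29% lower. The heavy chain gene of IgG1, Ighg1, stood at 45.9 CPM in EIC 1, at 0.119, 0.120, 1.06 and 3.19 CPM in the other EIC tumours and at 0 to 0.205 CPM in 16IC. Cr2, a complement receptor, and Spib, a B-cell factor, stood at 2.77 and 4.22 CPM in EIC 1 and at no more than 0.250 and 0.312 CPM elsewhere. Ighd, the IgD heavy chain of naive B cells, stood at 4.74 CPM in EIC 1 and at 0.0624 to 0.711 CPM elsewhere. These genes were again highest in EIC 1. Derl3, an endoplasmic reticulum protein that plasma cells and other secretory cells express, had the highest level of the list at 7.56 to 84.3 CPM, and was lowest in EIC 1 (log2 difference 1.58, edgeR's adjusted p = 0.290).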

How the data were processed

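Bulk RNA was measured in 10 mammary tumours, 5 EIC and 5 16IC, grouped by the genotype labels. Extraction used an RNeasy Mini kit and library preparation NEBNext Ultra II, per the labels' protocols. The tools were STAR, HTSeq, Trimmomatic, limma and edgeR on GRCm38 (mm10), per the submitters' processing notes, and no versions, annotation release, strand setting or multi-mapper handling are given in the sources used here. The deposited table gives raw counts per gene and library, on which all tests rest. Its normalized counts (a signal equal to the authors' counts divided by a factor per library) and the authors' FPKM values were only examined. The authors' deposited log2 fold changes and adjusted p-values were copied for all 51 genes, and only those of Gzmb are printed here. For these genes the deposited log2 fold changes closely matched those of DESeq2 here. No per-sample column was left out (0).

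After TMM scaling, counts were tested by edgeR 4.0.16 in R 4.3.3 (robust quasi-likelihood fit, genotype as the only term) over 14915 genes past filterByExpr (minimum count 10), which hold 99.8% of the counts. P-values were adjusted by Benjamini-Hochberg over all genes tested, with a threshold of 0.05. The test itself gives no standard error. Each SE printed is an approximation, the size of the log2 difference over the square root of the test's F statistic. The 95% intervals were built from that SE with a t quantile. The code was tested on simulated data. DESeq2 1.42.0 was an alternative, as were other scalings, no filter, per-kilobase sums, sums without their leading genes, and leaving out each tumour. The median biological coefficient of variation was 33.6%, so spread between tumours limits most values, and for genes of a few counts counting error does too. P-values set the difference between the groups against the spread between tumours of different mice. Summed levels kept low genes and were not tested.

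All 53 genes are accounted for, those past the filter with full statistics and lower ones by counts. Genes outside the 53 are named where they lead their list or describe a tumour that stands apart. Some genes counted in these lists are not reported here by name. The genes, lists and marker lists were chosen with earlier results of these data known. Overlaps and shared 50-base stretches come from GENCODE M21 (all 51 genes found, 48 with the same coordinates), with a gene called uncertain above 5%. By that rule Cd247, Cd8b1, Trbc1, Trbc2, Foxp3, Ifng, Cd79a, Pax5, Cd22 and Mzb1 are uncertain.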

Additional observations from a re-analysis of the deposited data

Results flagged for a closer look

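Of 40 groups of 5 tumours tested for a sample far from the others, over the genes past the count filter and the summed levels, 1 was singled out. The level of Thy1 in EIC 2 was 17.4 CPM, against 28.3 to 34.3 CPM in the other 4 EIC tumours. For single genes the gap and the range were taken on log2 of CPM plus 0.1, not on the CPM values printed here. On that log2 scale the gap from EIC 2 to the nearest was 0.716 of the range. The critical value for 5 samples is 0.71. Chance alone singles out about 1 in 20 groups.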

How the results depend on the processing

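With edgeR 0 genes passed in all. With 1 tumour left out 0 to 2 did (1 without EIC 1, 2 without EIC 2), none of them among the 51 genes. DESeq2 called 356 genes, of which 1 was among the 51 (Gzmb). Rasgrp1 and Xcl1, from the further T and NK lists, were also called. With 1 tumour left out, chosen after seeing the data, DESeq2 called 0 to 2 of the 51 (Gzmb, and also Thy1 without 16IC 2). The log2 ratio of summed levels ran from -1.003 to -0.56 for T, from 0.55 to 2.10 for NK and cytotoxic and from -1.55 to -0.06 for B and plasma genes with 1 tumour left out, and was 0.11 for T genes without Thy1, Tcf7 and EIC 1, a setting chosen after seeing the data. On average 41.2 EIC and 42.2 16IC genes had at least 1 count, and 19.6 and 18.0 at least 10 counts. With 1 tumour left out the log2 difference of Gzmb ran from 2.98 to 5.36. It changed sign for Cd4 (-0.94 to 0.025), Lck (-0.22 to 0.22), Gzmc (-0.62 to 0.83), Klrk1 (-0.25 to 0.93), Cd22 (-0.81 to 0.23), Ighm (-0.25 to 0.55), Igha (-1.34 to 0.52) and Pou2af1 (-1.46 to 0.18), and for Lck with no filter on low counts (7.71e-04). The cause was not tested. Scaling by total count or by size factors of the DESeq2 type changed no direction or call among 22 results each. No paired analysis was possible because the numbers of the tumours come from accession order and link no tumours across groups. Depth limits the 34 genes below the count filter, where 1 count is worth 0.0577 to 0.0719 CPM.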

Other observations

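Signals that draw lymphocytes were present beside the sparse lymphocyte genes. Of 9 lymphocyte-attracting chemokine genes in the table, 5 were tested, 2 higher and 3 lower in 16IC (median log2 difference -0.28, 0 called by edgeR or DESeq2). Cxcl12, which guides cells through CXCR4, and Cxcl16, which acts on CXCR6, led the list. Cxcl12 stood at 58.5, 9.90, 40.6, 67.5 and 48.2 CPM in EIC and 23.7, 78.0, 15.9, 17.2 and 109 CPM in 16IC. Cxcl16 stood at 56.0, 16.3, 14.0, 45.9 and 44.7 CPM in EIC and 28.6, 43.8, 15.9, 14.4 and 43.1 CPM in 16IC. Both varied several-fold within each group. The interferon-induced Cxcl9, a ligand of CXCR3, was highest in 16IC 1 (10.4 CPM), EIC 4 (7.86 CPM) and EIC 1 (6.64 CPM), and its receptor gene Cxcr3 stood at 0.120 to 1.33 CPM. Of 25 interferon-stimulated genes 17 were higher and 8 lower in 16IC (median 0.37, 0 called by either tool).

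Lists of other cell types, except mammary epithelium, held more genes lower than higher in 16IC. Of 12 leukocyte genes 2 were higher and 10 lower in 16IC (median -0.41), and of 12 macrophage genes 1 was higher and 11 lower (median -0.30), with 0 called by either tool. Per kilobase of gene length, the macrophage receptor gene Csf1r averaged 14.1 CPM and the leukocyte gene Ptprc 1.23 CPM. As means over the 10 tumours, the 51 lymphocyte genes ranged from 0.0139 CPM (Ifng) to 12.8 CPM (Igkc) per kilobase. By these means 6 of them (Thy1, Tcf7, Gzmb, Gzmc, Ighm and Igkc) stood above Ptprc. Single tumours weighed on some means, with 70.4% of the Igkc counts in EIC 1. Medians of the 6, in the same order, were 8.15, 3.27, 0.945, 1.29, 3.33 and 2.16 CPM per kilobase. Of 5 tested neutrophil genes 0 were higher and 5 lower in 16IC (median -2.42, 0 called by edgeR, 3 by DESeq2). All 5 had an unadjusted edgeR p under 0.05, where 6.29% of all tested genes were lower at that level. DESeq2 called 2.11% of all genes with an adjusted p there. Mast cell genes were 1 higher and 7 lower of 8 tested (median -0.97), those of plasmacytoid dendritic cells 1 and 4 of 5 (-0.26), of lymph node stroma 1 and 3 of 4 (-0.22), of fibroblasts 1 and 9 of 10 (-0.68), of endothelium 2 and 5 of 7 (-0.20) and of mammary epithelium 5 and 5 of 10 (-0.16), with 0 called by either tool.

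Lck, Ighm and Cd22 had counts in tumours where some, but not all, genes that define T or B cells were at 0. In EIC 3, 20 counts of Lck stood beside 0 of the 4 CD3 subunits, but also beside 7 of Trac, 34 of Cd4 and 7 of Cd28. In 16IC 1, 117 counts of Ighm stood beside 12 of Igkc and 0 of Ms4a1, Cd79a, Pax5, Blk and Pou2af1, with 3 of Cd79b and 16 of Cd22. Which cells these counts come from was not tested.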
